A study of Mus musculus with 11 samples.

Results

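Bone morphogenetic protein (BMP) signalling was followed through 10 genes: the ligands *Bmp2*, *Bmp4*, *Bmp5*, *Bmp6*, *Bmp7* and *Bmp10*, the receptors *Acvrl1* and *Bmpr2*, and the target genes *Id1* and *Id2*. They were chosen by name, matched to their Ensembl identifiers, and read in each heart as the count of sequencing reads on the strand of the gene. They are 10 of the 55487 genes counted, and all 10 were among the 24177 genes that had at least 10 counts over all hearts and were tested. RNA was sequenced from whole embryonic hearts at E14.5, 1 library per heart, of 5 *Pde2A*-/- embryos (KO A, B, 14, D and 15) and 6 *Pde2A*+/+ embryos (WT 6, 7, 8, 11, E and H). *Pde2A* encodes a phosphodiesterase that breaks down cAMP and cGMP. The embryos carried, or lacked, the tm1Dgen allele of *Pde2A* on a mixed B6 and 129P2 background, and came from matings of heterozygous mice. The allele is carried in the germline and is not limited to the heart, so blood, liver and every other organ of the *Pde2A*-/- embryos carried it too, and no drug treatment is given for these hearts. Both sexes were used, and neither the sex nor the litter of a single heart is given. The p-values below therefore measure the spread between these hearts, and do not separate genotype from sex or litter. All values compare hearts in which fewer cells of a type and less RNA per cell cannot be told apart.

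BMPs are secreted growth factors of the TGF-beta family that bind pairs of type I and type II receptor kinases. The activated type I receptor phosphorylates Smad1, Smad5 and Smad9, which enter the nucleus with Smad4 and switch on targets such as the *Id* genes, while Smad6, Smad7 and secreted antagonists restrain the pathway. In the embryonic heart, myocardial *Bmp10* is known for the growth of the trabeculae, *Bmp2* and *Bmp4* for the endocardial cushions and the outflow tract, and the type I receptor Acvrl1 (ALK1) for the endothelium.

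Between 35865537 and 42835382 reads per heart fell on the gene strand. *Pde2a* itself had 0 to 2 counts in each heart and 7 in all. The targeted gene could therefore not check the genotype labels, and 64.3% of its exon bases are shared with *Gm45837* on the same strand, where reads on both genes are not counted. Markers of other tissues were high in several hearts. Summed thymus markers were 53.0 CPM (counts scaled to a common library size by TMM factors) in WT 7 and at most 0.366 CPM in every other heart. Markers of lung and other epithelia were 51.7 CPM in WT 7 and 56.0 CPM in WT 11, against 13.8 to 17.3 CPM elsewhere, with the surfactant genes *Sftpc* and *Sftpb* at 3 counts or fewer in every heart. Liver markers were 35.5 to 110.7 CPM in KO D, WT 11, WT E and WT H, against at most 2.95 CPM in the others. Skeletal muscle markers were 252.4 CPM in KO B and 265.0 CPM in KO D, against 100.6 to 185.4 CPM elsewhere. Heart markers were high throughout: 10 genes of working cardiomyocytes summed to between 33646 and 46899 CPM in every heart.

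Of the 10 BMP genes, *Bmp10* and *Bmp6* rose in *Pde2A*-/- hearts and *Bmp5* fell, by edgeR's quasi-likelihood test at an adjusted p under 0.05 (Benjamini-Hochberg, over all tested genes). Neither receptor passed in edgeR, where 1 had an unadjusted p under 0.05 and 1 passed in DESeq2, and neither did *Id1* or *Id2*. Over all tested genes, 30.5% had an unadjusted p under 0.05 in edgeR and 21.3% passed the adjusted p in DESeq2. The 3 genes are 30.0% of the list, beside 14.6% of all 24177 genes, of which 8.93% were higher and 5.67% lower. The list was written with earlier results of these data known, so its share is a description and not a test. *Bmp10* was the 1 gene of the list that also differed by at least 2-fold, as 2.59% of all genes did, and the 1 whose *Pde2A*-/- hearts did not overlap the *Pde2A*+/+ hearts, as for 8.49% of all genes. Over the list the log2 fold change had a median of 0.13, beside -0.023 for all tested genes, and 8 of the 10 were above 0. Hearts are named by a letter or by a number, which the labels do not call a batch. Among the 5 hearts named by a letter, 0 of the 10 genes passed the adjusted p in edgeR and 5 passed an unadjusted p under 0.05, beside 11% of all genes, and among the 6 named by a number 5 passed the adjusted p, beside 18.6% of all genes. Without the 6 hearts with high markers of other tissues, 5 hearts remained, 0 of the 10 genes passed the adjusted p in edgeR and 2 passed an unadjusted p under 0.05, beside 18.3% of all genes. Both subsets of 5 hearts called few genes anywhere, 0.466% and 1.07% of those tested, and *Bmp10*, *Bmp6* and *Bmp5* had the same direction in each. Without WT 7 and WT 11 alone, the log2 fold changes were 1.80 for *Bmp10*, 0.57 for *Bmp6* and -0.34 for *Bmp5*, all past the adjusted p.

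**Figure D1:**
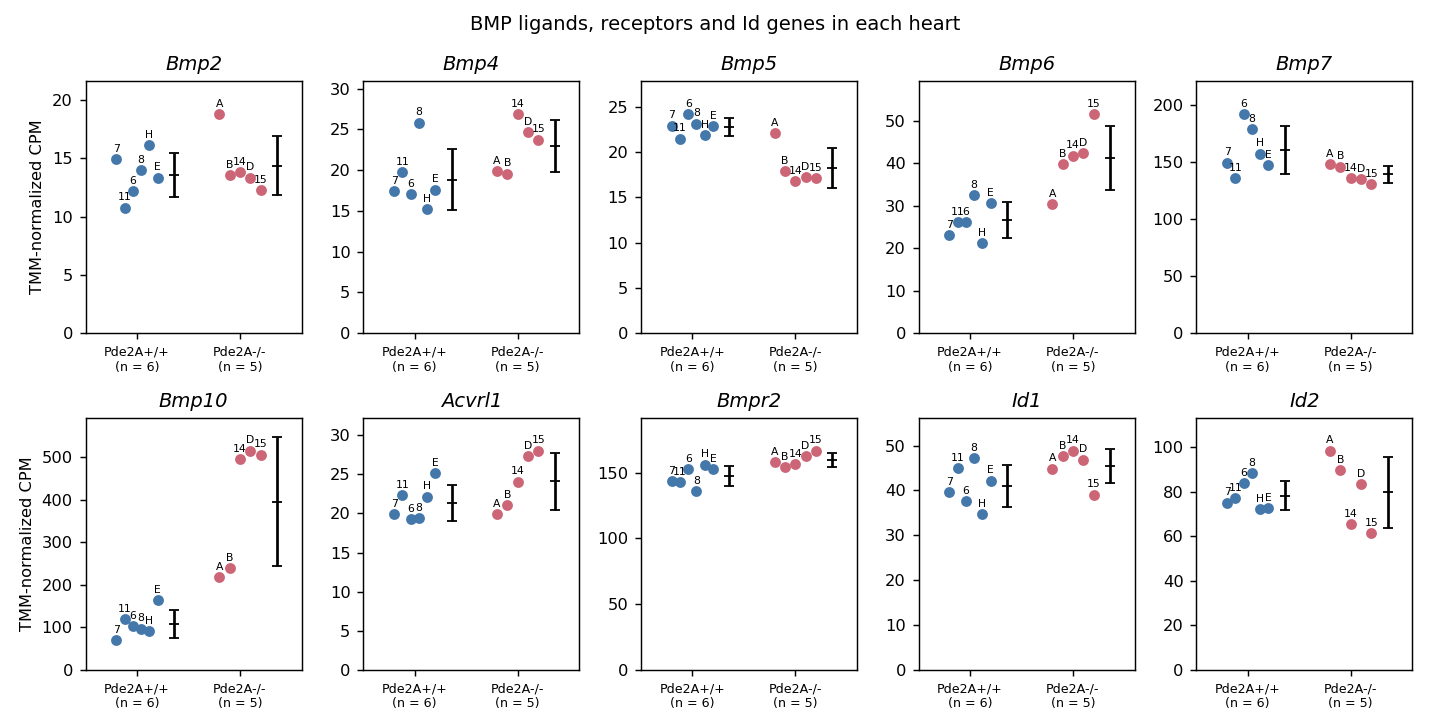
CPM of the 10 BMP genes in each heart, 1 panel per gene with its own axis starting at 0; points are hearts and the bars give the mean and SD of 5 *Pde2A*-/- and 6 *Pde2A*+/+ hearts. *Bmp10* is the gene whose genotypes are separated in every heart, from 218.7 CPM upward in *Pde2A*-/- and up to 164.4 CPM in *Pde2A*+/+ hearts.

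*Bmp10* (ENSMUSG00000030046, GRCm38 chromosome 6, 87428994 to 87437677, plus strand) encodes the myocardial ligand that binds ALK1 on endothelial cells and sustains trabecular growth. It stood at 218.7, 239.9, 495.4, 515.5 and 506.2 CPM in KO A, B, 14, D and 15, and had a lowest value of 70.1, a median of 99.4 and a highest of 164.4 CPM in the *Pde2A*+/+ hearts. Every *Pde2A*-/- heart was above every *Pde2A*+/+ heart, and the *Pde2A*-/- hearts fell into a lower pair (KO A and B) and a higher group of 3. The means were 395.1 ± 152 CPM (SD, n = 5) and 107.1 ± 32.3 CPM (SD, n = 6). The log2 fold change was 1.88 (SE 0.26, 95% interval 1.32 to 2.44), a 3.69-fold difference, with an edgeR adjusted p of 5.32e-04. It lay between 1.77 and 2.05 when any single heart was left out. Within the hearts named by a letter, which hold both of the lower *Pde2A*-/- hearts, it was 1.35, and within those named by a number 2.37, both in the same direction. Without the 6 hearts with high markers of other tissues it was 2.03, with an edgeR adjusted p of 0.0529. Over all alternatives the adjusted p ran from 1.74e-08 in DESeq2 to 0.292 in edgeR among hearts named by a letter.

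Of 6 markers of trabecular myocardium 1 passed the test, beside 14.6% of all genes. It was *Nppa*, which encodes atrial natriuretic peptide (2746 ± 563 against 1501 ± 396 CPM, log2 fold change 0.87, edgeR adjusted p = 0.00999, n = 5 and 6). *Nppb*, its relative, had a log2 fold change of 1.11 (edgeR adjusted p = 0.0501), while *Gja5* and *Cited1* were at -0.11 and -0.14. The sum of the 6, to which *Nppa* gave the largest share, was 2315 to 3946 CPM in *Pde2A*-/- and 1434 to 2479 CPM in *Pde2A*+/+ hearts, with 4 of 5 *Pde2A*-/- hearts above all *Pde2A*+/+ hearts and KO A, the lowest for *Bmp10*, within their range. The summed cardiomyocyte markers overlapped, at 35562 to 40795 CPM in *Pde2A*-/- hearts. Of 6 markers of atrial myocardium 0 were higher and 1 was lower, *Myl4* (log2 fold change -0.45, edgeR adjusted p = 0.00593), beside 8.93% and 5.67% of all genes. Their sums overlapped, at 1918 to 2619 CPM in *Pde2A*-/- and 2107 to 3248 CPM in *Pde2A*+/+ hearts. The part of trabecular or atrial myocardium in the *Bmp10* difference was not tested.

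*Bmp6* (ENSMUSG00000039004, chromosome 13, 38345107 to 38500302, plus strand) encodes a ligand of endocardium and endothelium, known in the adult liver as the inducer of hepcidin. It stood at 30.4, 39.7, 41.8, 42.3 and 51.6 CPM in KO A, B, 14, D and 15, and at a lowest of 21.1, a median of 26.1 and a highest of 32.5 CPM in the *Pde2A*+/+ hearts. All *Pde2A*-/- hearts but KO A were above every *Pde2A*+/+ heart. On the log2 scale the difference was 0.63 (SE 0.13, 95% interval 0.35 to 0.91), or 1.55-fold, with an edgeR adjusted p of 0.00822, and it was 0.54 to 0.73 with any single heart left out.

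*Bmp5* (ENSMUSG00000032179, chromosome 9, 75775364 to 75900310, plus strand) encodes a ligand of the 60A subgroup, to which *Bmp6* and *Bmp7* also belong. It stood at 22.1, 17.9, 16.8, 17.3 and 17.2 CPM in KO A, B, 14, D and 15, and at a lowest of 21.5, a median of 22.9 and a highest of 24.2 CPM in the *Pde2A*+/+ hearts. Again KO A lay within the *Pde2A*+/+ range, and the other 4 *Pde2A*-/- hearts lay below it. The log2 fold change was -0.32 (SE 0.073, 95% interval -0.48 to -0.16), with an edgeR adjusted p of 0.0139. It was -0.39 to -0.29 with any single heart left out.

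*Bmp7* (ENSMUSG00000008999, chromosome 2, 172868012 to 172940321, minus strand) encodes a ligand of the embryonic myocardium whose roles in the mouse heart overlap with those of *Bmp5* and *Bmp6*. It had 148.0, 145.9, 135.6, 135.3 and 130.9 CPM in KO A, B, 14, D and 15, and a lowest of 136.2, a median of 153.4 and a highest of 192.1 CPM in *Pde2A*+/+ hearts. The genotypes overlapped and the difference missed the threshold (log2 fold change -0.20, 95% interval -0.38 to -0.028, edgeR adjusted p = 0.109).

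*Bmp4* (ENSMUSG00000021835, chromosome 14, 46383520 to 46390669, minus strand), a ligand of the outflow tract, had 19.9, 19.6, 26.9, 24.7 and 23.7 CPM in KO A, B, 14, D and 15, and a lowest of 15.2, a median of 17.5 and a highest of 25.8 CPM in *Pde2A*+/+ hearts. Its highest *Pde2A*+/+ value, in WT 8, exceeded 4 of the 5 *Pde2A*-/- hearts. The log2 fold change of 0.29 (95% interval 0.012 to 0.56) had an edgeR adjusted p of 0.147. Without WT 8 it was 0.40 and the adjusted p was 0.0282, within a range of 0.0282 to 0.762 over all alternatives.

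*Bmp2* (ENSMUSG00000027358, chromosome 2, 133552159 to 133562885, plus strand), the ligand that patterns the atrioventricular canal, was the least abundant of the 6 ligands. KO A had 18.8 CPM, the other *Pde2A*-/- hearts had 12.3 to 13.8 CPM, and the *Pde2A*+/+ hearts 10.8 to 16.1 CPM around a median of 13.7 CPM. Its log2 fold change was 0.084 (95% interval -0.18 to 0.34, edgeR adjusted p = 0.699), so that a difference of up to 1.27-fold upward lies within its interval. It was -0.027 without KO A.

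The promoter sequences of the 3 called ligand genes and of *Id2* are shown so that their letters can be compared between the ligands and a target. They are RefSeq promoters on GRCm38.p6, from 250 bases before to 50 after the start that RefSeq annotates, for 6 of the 10 genes that the promoter table matched (*Bmp4*, *Bmp5*, *Bmp6*, *Bmp10*, *Bmpr2* and *Id2*). RefSeq and GENCODE M21 place some starts differently: the windows of *Bmp6*, *Bmpr2* and *Id2* lie inside the gene bounds given here, past the outermost GENCODE start. In these lines, capitals mark the pattern AGATAA, of the kind that GATA factors bind, and the pattern GGCGCC, which Smad1 and Smad5 bind, on either strand.
Bmp10, chr6:87428744-87429043, plus strand: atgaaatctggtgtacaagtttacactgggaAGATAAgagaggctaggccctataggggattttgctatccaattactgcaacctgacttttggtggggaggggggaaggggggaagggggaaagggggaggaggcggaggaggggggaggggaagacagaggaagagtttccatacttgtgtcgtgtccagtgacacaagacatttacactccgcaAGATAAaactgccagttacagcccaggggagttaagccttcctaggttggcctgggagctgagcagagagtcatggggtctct
Bmp6, chr13:38345466-38345765, plus strand: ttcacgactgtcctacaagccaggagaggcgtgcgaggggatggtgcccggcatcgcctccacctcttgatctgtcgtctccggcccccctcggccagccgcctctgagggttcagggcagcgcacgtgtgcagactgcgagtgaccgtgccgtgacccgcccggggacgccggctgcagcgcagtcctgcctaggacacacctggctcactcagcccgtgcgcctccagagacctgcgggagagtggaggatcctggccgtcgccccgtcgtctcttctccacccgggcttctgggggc
Bmp5, chr9:75775115-75775414, plus strand: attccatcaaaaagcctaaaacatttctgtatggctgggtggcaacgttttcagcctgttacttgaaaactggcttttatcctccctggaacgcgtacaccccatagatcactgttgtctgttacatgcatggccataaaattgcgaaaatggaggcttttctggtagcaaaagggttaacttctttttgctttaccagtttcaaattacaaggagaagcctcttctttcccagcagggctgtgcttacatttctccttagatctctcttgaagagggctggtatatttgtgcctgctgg
Id2, chr12:25096043-25096342, minus strand: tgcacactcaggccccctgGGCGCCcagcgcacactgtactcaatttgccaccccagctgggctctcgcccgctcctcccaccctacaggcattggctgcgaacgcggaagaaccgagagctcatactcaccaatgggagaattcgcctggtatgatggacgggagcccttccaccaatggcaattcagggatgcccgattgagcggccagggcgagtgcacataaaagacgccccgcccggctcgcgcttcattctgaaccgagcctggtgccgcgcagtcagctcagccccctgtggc
*Bmp10* held AGATAA at 2 places and was the 1 of the 6 with this pattern, which 11.2% of all 32851 promoters of the table hold. AGATAA was added to the search after these sequences had been read. GGCGCC was in the promoters of *Id2* and *Bmpr2*, as in 11.9% of all. The cAMP response element TGACGTCA (1.79% of all), the shorter TGACG that lies within it (20.8%) and the Smad palindrome GTCTAGAC (0.213%) were in none of the 6. GC content was 53.0% for *Bmp10*, 69.3% for *Bmp6*, 43.3% for *Bmp5* and 63.3% for *Id2*, with a median of 52.7% over all promoters. These matches describe letters in the window only.

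The make-up of the ligand pool was then described per length of exon, the scale on which genes can be compared. In *Pde2A*+/+ hearts *Bmp7* was the most abundant ligand at 39.9 ± 5.25 CPM per kb of exon (SD, n = 6), followed by *Bmp10* at 23.9 ± 7.20, *Bmp4* at 8.37 ± 1.66, *Bmp6* at 6.82 ± 1.11, *Bmp5* at 5.66 ± 0.241 and *Bmp2* at 3.81 ± 0.539. In *Pde2A*-/- hearts the order began with *Bmp10* at 88.0 ± 33.8 CPM per kb (SD, n = 5), then *Bmp7* at 34.6 ± 1.85, *Bmp6* at 10.6 ± 1.94, *Bmp4* at 10.2 ± 1.41, *Bmp5* at 4.54 ± 0.549 and *Bmp2* at 4.04 ± 0.719. *Bmp10* thus took the first place from *Bmp7*. *Bmp10* was 1.32 to 3.46 times *Bmp7* in every *Pde2A*-/- heart and 0.420 to 0.998 times in every *Pde2A*+/+ heart. Its share of the summed level of the 6 ligands was 56.0% ± 10.6 (SD, n = 5) and 26.7% ± 6.33 (SD, n = 6), and that of *Bmp7* 24.1% ± 7.13 and 45.3% ± 5.30.

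**Figure D2:**
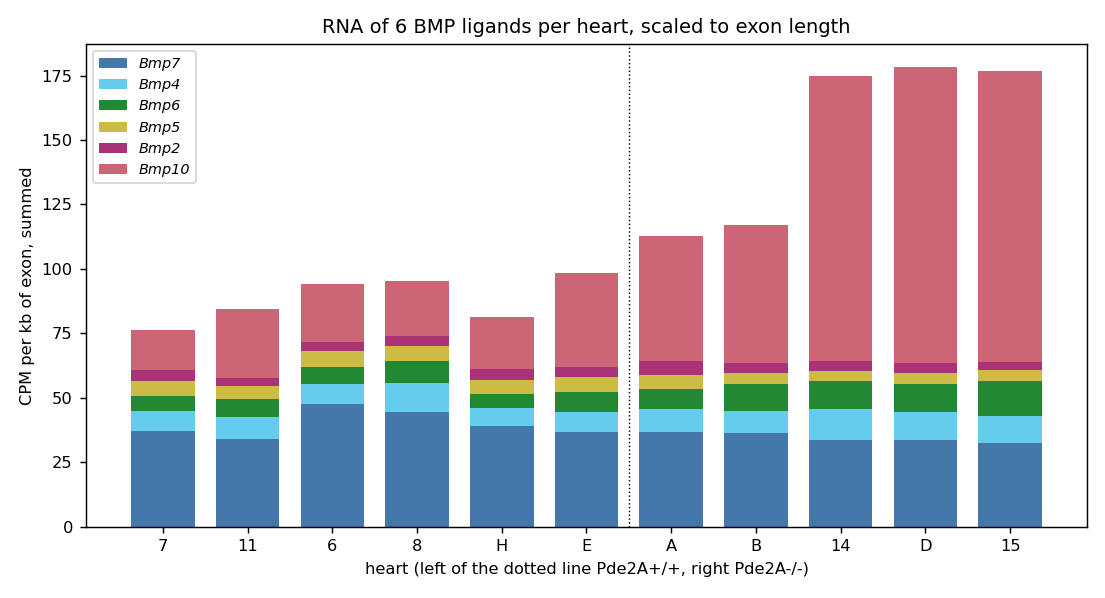
Stacked bars of the level of the 6 BMP ligands in each heart, in CPM per kb of exon on an axis starting at 0. The summed level is 113.0 to 178.3 in *Pde2A*-/- and 76.4 to 98.4 in *Pde2A*+/+ hearts, and without *Bmp10* its means are 64.0 and 64.5.

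Summed, the 6 ligands reached 152.0 ± 33.9 CPM per kb (SD, n = 5) against 88.4 ± 8.90 (SD, n = 6) in *Pde2A*+/+ hearts, and the sums did not overlap. With *Bmp10* left out, the sum of the other 5 was 64.0 ± 0.442 and 64.5 ± 6.57 CPM per kb. In that sum a higher mean level of *Bmp6*, *Bmp4* and *Bmp2* stood beside a lower mean level of *Bmp5* and *Bmp7*. These sums are descriptions without a test.

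Over all 10 genes, neighbours in the order of levels were mostly within each other's range. In *Pde2A*+/+ hearts the order was *Bmp7*, *Id1* (35.4 CPM per kb), *Id2* (32.1), *Bmp10*, *Bmp4*, *Bmpr2* (8.20), *Bmp6*, *Bmp5*, *Acvrl1* (5.01) and *Bmp2*, and the ranges of *Bmp10* and *Bmp4* were the only neighbours that did not overlap. In *Pde2A*-/- hearts it was *Bmp10*, *Id1* (39.2 CPM per kb), *Bmp7*, *Id2* (32.7), *Bmp6*, *Bmp4*, *Bmpr2* (8.88), *Acvrl1* (5.65), *Bmp5* and *Bmp2*, with gaps between *Bmp10* and *Id1*, between *Id2* and *Bmp6*, and between *Bmpr2* and *Acvrl1*.

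Of the receptors, *Bmpr2* (ENSMUSG00000067336, chromosome 1, 59763400 to 59879014, plus strand) encodes the type II receptor mutated in heritable pulmonary arterial hypertension. It had 158.3, 154.6, 156.4, 162.6 and 166.9 CPM in KO A, B, 14, D and 15, and a lowest of 136.1, a median of 148.3 and a highest of 156.3 CPM in *Pde2A*+/+ hearts. KO B was the 1 *Pde2A*-/- heart within the *Pde2A*+/+ range. The log2 fold change of 0.12 (SE 0.046, 95% interval 0.017 to 0.21) missed the threshold in edgeR (adjusted p = 0.105) and passed it in DESeq2 (adjusted p = 0.0476, the lowest of a range up to 0.884 over the alternatives).

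*Acvrl1* (ENSMUSG00000000530, chromosome 15, 101128522 to 101145336, plus strand), the endothelial type I receptor for *Bmp10*, had 19.9, 21.1, 24.1, 27.4 and 28.0 CPM in KO A, B, 14, D and 15, and a lowest of 19.3, a median of 21.0 and a highest of 25.2 CPM in *Pde2A*+/+ hearts. The groups overlapped, and the log2 fold change was 0.17 (95% interval -0.045 to 0.39, edgeR adjusted p = 0.272). It was 0.36 among hearts named by a number and -0.058 among those named by a letter.

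Among 9 other receptors and co-receptors, 1 passed the test. *Eng*, the endothelial co-receptor endoglin that presents BMP10 to ALK1, had 297.3, 367.2, 299.1, 281.3 and 285.3 CPM in KO A, B, 14, D and 15 and 188.4 to 248.6 CPM in *Pde2A*+/+ hearts. All *Pde2A*-/- hearts were above all *Pde2A*+/+ hearts, and 8.49% of all genes had no overlap of the genotypes. The *Eng* log2 fold change was 0.48 (SE 0.081, edgeR adjusted p = 0.00233). Without the 6 hearts with high markers of other tissues it was 0.29 and missed the adjusted p. Endothelial markers did not move as 1 set: of 10, all detected, 3 were higher, 1 was lower and 6 were not called. Over all genes 8.93% were higher and 5.67% lower. The 10 markers summed to 1550.4 to 1791 CPM in *Pde2A*-/- and 1298 to 1550.2 CPM in *Pde2A*+/+ hearts, ranges that almost met. Their median log2 fold change was 0.18. Of these, *Emcn* rose by 0.50 (edgeR adjusted p = 0.00270) and *Cldn5* fell by 0.79 on the log2 scale (edgeR adjusted p = 7.01e-04). The part of endothelial cells in the *Eng* and *Bmp6* differences was not tested.

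**Figure D3:**
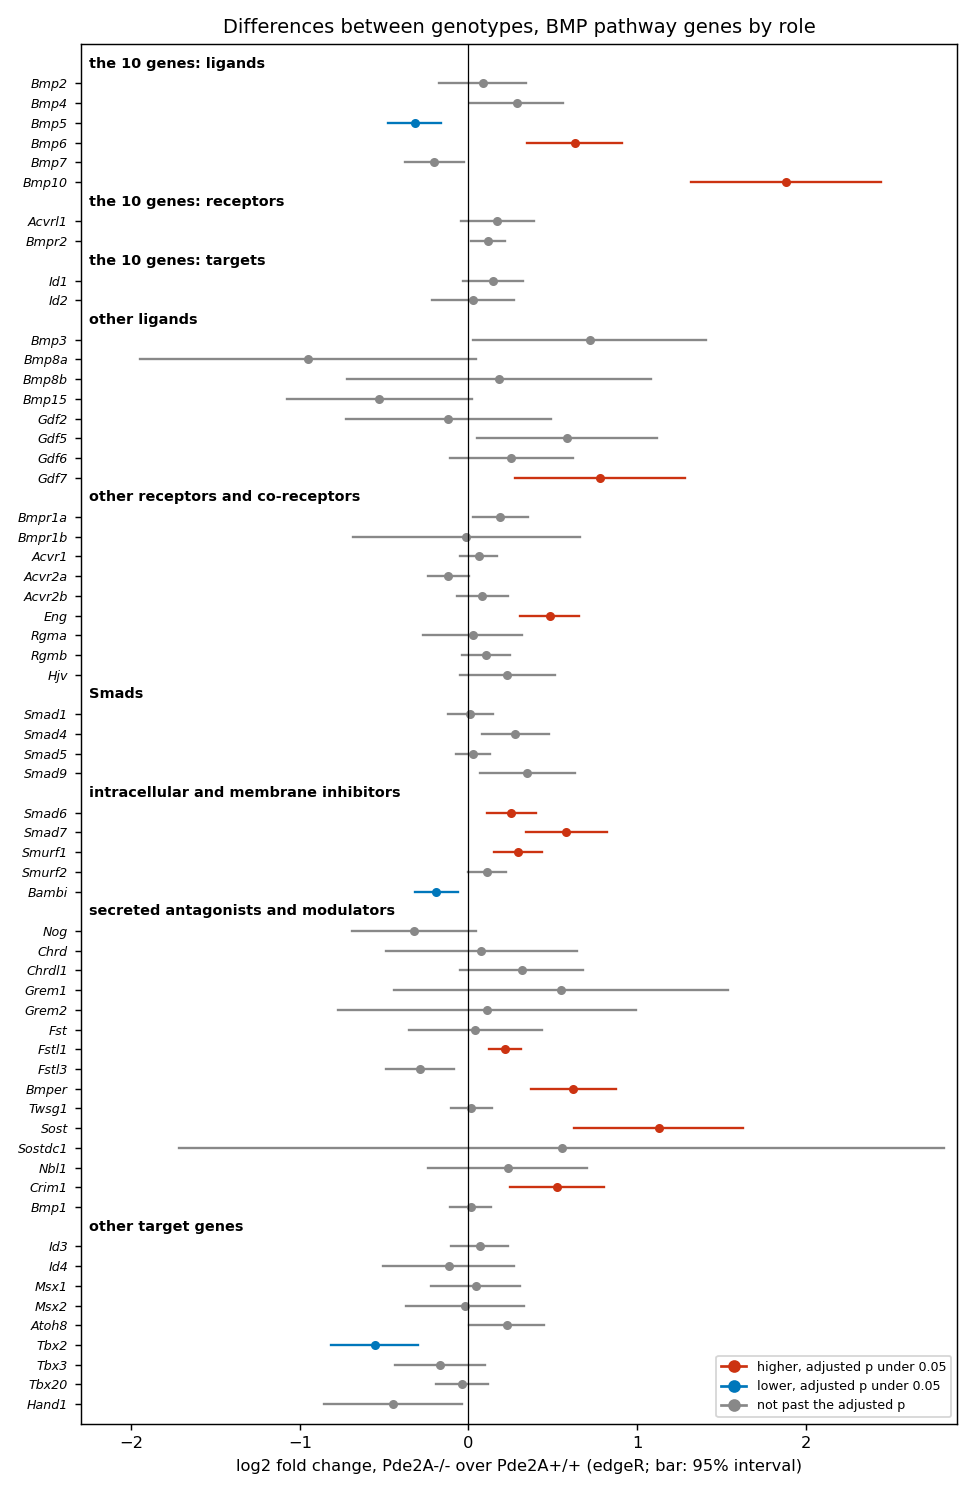
Log2 fold change, *Pde2A*-/- over *Pde2A*+/+, of the 10 BMP genes and 50 other pathway genes, ordered by role; points are edgeR estimates and bars their 95% intervals. The *Bmp10* interval, 1.32 to 2.44, lies apart from those of the other 9 genes, the nearest of which, *Bmp6*, ends at 0.91.

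Neither target gene of the list passed the test, and 0 of 2 had an unadjusted p under 0.05 or passed in DESeq2. *Id1* (ENSMUSG00000042745, chromosome 2, 152736251 to 152737410, plus strand), an inhibitor of basic helix-loop-helix factors and a direct Smad target, had 44.9, 47.6, 48.9, 46.9 and 39.1 CPM in KO A, B, 14, D and 15, and a lowest of 34.6, a median of 41.0 and a highest of 47.3 CPM in *Pde2A*+/+ hearts. KO 14 had the highest *Id1* value of all hearts and KO 15 the lowest of its genotype, and the genotypes overlapped. For *Id1* the log2 fold change was 0.15 (95% interval -0.030 to 0.32, edgeR adjusted p = 0.250), so that an *Id1* difference above 1.25-fold lies outside the interval.

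*Id2* (ENSMUSG00000020644, chromosome 12, 25093799 to 25097140, minus strand), of the same family, had 98.6, 90.0, 65.4, 83.6 and 61.4 CPM in KO A, B, 14, D and 15, and a lowest of 72.1, a median of 76.3 and a highest of 88.4 CPM in *Pde2A*+/+ hearts. KO A and B were above all *Pde2A*+/+ hearts, and KO 14 and 15 below all of them, and the SD was 15.9 CPM in *Pde2A*-/- and 6.56 CPM in *Pde2A*+/+ hearts. The difference on the log2 scale was 0.028 (95% interval -0.21 to 0.27, edgeR adjusted p = 0.900). Its direction depended on the hearts used: it was 0.32 among those named by a letter, -0.36 among those named by a number, to which KO 14 and 15 belong, -0.055 without KO A and -0.019 without KO B.

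Among 9 other target genes, *Tbx2* was the 1 called by edgeR, which called 14.6% of all tested genes. This T-box repressor of the atrioventricular canal fell from 17.3 ± 2.74 CPM (SD, n = 6) to 11.7 ± 1.71 CPM (SD, n = 5) (log2 fold change -0.56, SE 0.12, edgeR adjusted p = 0.0105). Every *Pde2A*-/- heart was below every *Pde2A*+/+ heart, and 8.49% of all genes had no overlap of the genotypes. *Tbx2* was at -0.39 among hearts named by a letter and at -0.49 without the 6 hearts with high markers of other tissues, both short of the adjusted p. The median of these 9 on the log2 scale was -0.040, and 3 of them were above 0.

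The signal transducers and the brakes of the pathway were read from lists of the same kind. Of 4 Smads that carry the signal (*Smad1*, *Smad4*, *Smad5* and *Smad9*), 0 passed the adjusted p in edgeR, 2 passed an unadjusted p under 0.05 and 2 passed in DESeq2. The shares of all tested genes were 14.6%, 30.5% and 21.3%. Of 5 inhibitors inside the cell or in its membrane, 3 were higher and 1 lower, beside 8.93% and 5.67% of all genes. *Smad7*, an inhibitory Smad induced by the pathway it restrains, had 51.5, 56.0, 64.9, 70.9 and 79.9 CPM in KO A, B, 14, D and 15 and 36.1 to 50.7 CPM in *Pde2A*+/+ hearts (log2 fold change 0.58, SE 0.11, edgeR adjusted p = 0.00550). *Smad6*, its relative specific to BMP receptors, differed by 0.26 (edgeR adjusted p = 0.0250, and 0.0606 without KO 14, within a range of 0.00333 to 0.582 over the alternatives). *Smurf1*, a ubiquitin ligase that removes Smads and receptors, differed by 0.29 (edgeR adjusted p = 0.0134, and from 9.85e-04 in DESeq2 to 0.461 in edgeR over the alternatives). Its call was lost among hearts named by a letter, without the 6 hearts with high markers of other tissues, and without WT 7 and WT 11. *Bambi*, a membrane decoy receptor, differed by -0.19 (edgeR adjusted p = 0.0467), a call kept under 4 of 21 alternatives. Both *Smad6* and *Smad7* also answer to TGF-beta.

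Secreted antagonists and modulators had 4 of 15 genes higher and 0 lower by edgeR, with a median log2 fold change of 0.21. Over all tested genes 8.93% were higher and 5.67% lower. Of the 15, 5 had an unadjusted p under 0.05 in edgeR and 5 passed in DESeq2, beside 30.5% and 21.3% of all genes. *Sost*, sclerostin, named as a BMP antagonist and known mainly as an inhibitor of Wnt receptors, stood at 21.3 ± 6.71 and 9.73 ± 3.03 CPM (log2 fold change 1.13, SE 0.23, edgeR adjusted p = 0.00805, SD, n = 5 and 6), the largest log2 fold change of the called genes after *Bmp10*. KO A, at 11.6 CPM, was the 1 *Pde2A*-/- heart within the *Pde2A*+/+ range. *Bmper*, an endothelial modulator that binds BMPs, differed by 0.62 (SE 0.12, edgeR adjusted p = 0.00459). For *Bmper*, 5 of 5 *Pde2A*-/- hearts were above all *Pde2A*+/+ hearts, and 8.49% of all genes had no overlap of the genotypes. Without the 6 hearts with high markers of other tissues, *Sost* was at 0.63 and *Bmper* at 0.31, both short of the adjusted p, and *Bmper* also missed it among hearts named by a number (0.48). *Crim1*, a membrane protein that holds back BMPs, differed by 0.52 (edgeR adjusted p = 0.0189, and 0.0570 without KO D). Its adjusted p ran from 0.00156 in DESeq2 to 0.540 in edgeR over the alternatives. *Fstl1*, a secreted glycoprotein of mesenchyme that binds BMPs, differed by 0.21 (edgeR adjusted p = 0.00801), and by 0.16 among hearts named by a number and 0.12 without the 6 hearts, where it missed the adjusted p.

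Of 8 further ligands, *Gdf7* was the 1 called (log2 fold change 0.78, edgeR adjusted p = 0.0416), on 122 counts in all hearts, and the call was kept under 6 of 21 alternatives. Over the 50 other pathway genes, 9 were higher and 2 lower, 22.0% beside 14.6% of all genes, with a median log2 fold change of 0.093 and 36 above 0. This list too was written with earlier results of these data known, so its share is a description. In edgeR, 0 of the 50 passed among hearts named by a letter and 9 had an unadjusted p under 0.05, beside 0.466% and 11% of all genes. Without the 6 hearts with high markers of other tissues, 0 passed and 11 had an unadjusted p under 0.05, beside 1.07% and 18.3%. Without WT 7 and WT 11, 6 passed, beside 9.59% of all genes. On the log2 scale *Smad7* was at 0.34 and *Crim1* at 0.33 among hearts named by a letter, and *Smad6* at 0.11 without the 6 hearts. Markers of other cell types differed between the genotypes too. Macrophage markers summed to 249.6 to 343.1 CPM in *Pde2A*-/- and 121.8 to 202.2 CPM in *Pde2A*+/+ hearts, with 9 of 10 higher, and erythroid markers to 468.3 to 953.4 CPM and 107.4 to 489.6 CPM, with 7 of 8 higher. Their part in the ligand differences was not tested.

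The pattern of each gene over the 11 hearts was set beside that of 14023 genes whose mean reached 1 CPM, by the root mean square difference of log2 CPM scaled to unit SD over the hearts, in which 0 is an identical pattern. *Bmp10* lay nearest to *Hexa* (0.184) and *Pld3* (0.189), both lysosomal enzymes, and among the 10 genes to *Bmp6* (0.418). *Bmp6* lay nearest to *Mapk3* (0.213) and *Epha2* (0.237), and *Bmp5* to *Hdgfl3* (0.152) and *Rims4* (0.240). *Bmpr2* lay nearest to *Smpdl3a* (0.215) and *Spag9* (0.235), and *Acvrl1* to *Ilvbl* (0.242) and *Thra* (0.244). *Bmp10* was the nearest of the 10 genes for both receptors, at 0.674 for *Acvrl1* and 0.685 for *Bmpr2*.

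**Figure D4:**
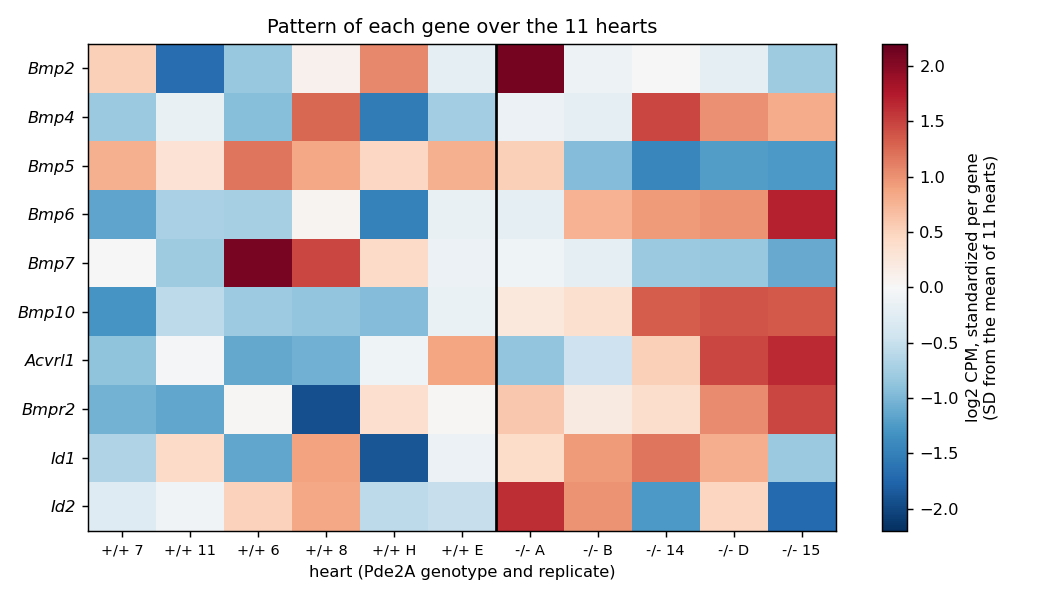
Log2 CPM of the 10 BMP genes in each of the 11 hearts, scaled per gene to mean 0 and SD 1. *Bmp10* and *Bmp6* take their lower *Pde2A*-/- values in KO A and B, and *Id2* takes its higher values in the same hearts.

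*Bmp7* lay nearest to *Coq5* (0.243) and *Rbpms2* (0.277), and of the list to *Bmp5* (0.700). The remaining genes had looser neighbours: *Arhgef10* (0.334) and *Gpr39* (0.334) for *Bmp4*, *Htt* (0.328) and *Slc2a10* (0.363) for *Id1*, *Rcn2* (0.340) and *Clcn7* (0.396) for *Id2*, and *0610040B10Rik* (0.468) and *Smc2* (0.546) for *Bmp2*. *Bmp2* and *Id2* stood apart from the list, with *Id2* at 1.07 the nearest member for *Bmp2* and *Bmp7* at 1.01 for *Id2*. These distances describe 11 hearts that share their genotype contrast and do not speak to shared control.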

How the data were processed

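Stranded poly(A) libraries of 5 *Pde2A*-/- and 6 *Pde2A*+/+ embryonic hearts were read single-end on an Illumina NextSeq. Per the labels and the study's methods, the authors aligned the reads with STAR to GRCm38 (mm10) and deposited whole-number counts per gene, without normalization, in 3 orientations. The orientation with the larger total was used. Reads of more than 1 gene are in no count, and 19.6% to 22.4% of reads stood in 4 lines without a gene and were left out. Names and positions came from GENCODE M21, which named 55227 of 55487 genes. No annotation version is given in the sources used here.

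A gene was tested where its counts summed to at least 10 in the 11 hearts. Normalization was by TMM and the test of genotype was the quasi-likelihood one of edgeR 4.0.16 in R 4.3.3, with p-values adjusted over all 24177 genes after Benjamini and Hochberg. CPM values use TMM library sizes, SDs are over hearts, and 95% intervals come from the fit. The code was tested on simulated data with known changes. The alternatives were DESeq2 1.42.0, its size factors, other count filters, reads of both strands, the naming style of the hearts as a covariate, other thresholds, each heart left out, and subsets of hearts chosen after seeing the data. Naming style, a letter or a number, is not a labelled batch.

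All 10 genes are named, with every other pathway gene past the adjusted p and, for each of the 10, the 2 genes and the 1 other gene of the list nearest in pattern; of marker lists only extremes are named. The 10 genes, the pathway and marker lists and this rule were chosen with earlier results of these data known. The motif AGATAA was chosen after its sequences were seen. Hearts count as replicates because each is a labelled sample. The 10 genes had at least 396 counts in each heart.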

Additional observations from a re-analysis of the deposited data

Results flagged for a closer look

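In 42 groups of hearts (21 genes in each genotype), 4 single hearts stood apart from the rest of their genotype by Dixon's test, which chance does in about 1 of 20 groups. *Bmp2* was 18.8 CPM in KO A, against 12.3 to 13.8 CPM in the other *Pde2A*-/- hearts. *Bmp5* was 22.1 CPM in the same heart, against 16.8 to 17.9 CPM. *Eng* was 367.2 CPM in KO B, against 281.3 to 299.1 CPM in the other *Pde2A*-/- hearts. *Smad6* was 83.1 CPM in WT 8, against 64.7 to 71.0 CPM in the other *Pde2A*+/+ hearts.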

How the results depend on the processing

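No paired analysis was possible because the genotypes share no replicate name. Of the 10 genes, 3 passed the adjusted p: 0 among hearts named by a letter, 5 among hearts named by a number, 0 without the 6 hearts with high markers of other tissues, and 3 to 4 with any single heart left out. With a fold of at least 2, 1 passed: 0 in each of the same subsets of 5 hearts, 1 with any heart left out, and 2 at a fold of at least 1.5. Of the 50 pathway genes 11 passed: 0 in each subset of 5 hearts (9 and 11 at an unadjusted p under 0.05 in edgeR, beside 11% and 18.3% of all genes), 6 without WT 7 and WT 11, and 8 to 14 with any heart left out. Of all genes tested, 14.6% passed with all hearts, 0.466% among hearts named by a letter and 18.6% among those named by a number. The share was 1.07% without the 6 hearts, 9.59% without WT 7 and WT 11, and 7.13% to 21.2% with any single heart left out. Log2 fold changes that lost the adjusted p were, among hearts named by a letter and without the 6 hearts, 1.35 and 2.03 for *Bmp10*, 0.53 and 0.49 for *Bmp6*, and -0.23 and -0.34 for *Bmp5*, where fewer hearts were compared. *Bmp7* passed without WT 7 and WT 11 (-0.28), *Acvrl1* among hearts named by a number (0.36) and *Bmpr2* in DESeq2 (0.12). *Acvrl1* turned to -0.058 among hearts named by a letter, and *Id2* to -0.031 with naming style as a covariate, -0.36 among hearts named by a number, where it passed, and -0.20 without the 6 hearts. With any heart left out, *Bmp2* ranged from -0.027 (without KO A) to 0.14, *Bmp4* from 0.22 to 0.40 (without WT 8, where it passed) and *Id2* from -0.055 (without KO A) to 0.11. The cause of these changes was not tested, and the subsets also hold fewer hearts. The subsets of hearts were chosen after seeing the data. For the 10 genes and the counts, the other 249 comparisons kept their direction and their side of the threshold or stayed within 1.5 times the count. For the 11 called pathway genes, 58 of 231 comparisons lost the adjusted p, 17 of them for *Bambi* and 15 for *Gdf7*, and 0 reversed.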
